A study of Arabidopsis thaliana with 4 samples.

Results

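The 40 genes described here are nuclear genes of the photosynthetic apparatus of Arabidopsis thaliana, taken from a fixed list of loci: 6 LHCA genes and 15 LHCB genes for chlorophyll-binding antenna proteins, 4 RBCS genes for the small subunit of Rubisco, 5 PSBO, PSBP and PSBQ genes, 5 genes for nuclear-encoded subunits of photosystem I, 2 plastocyanin genes (PETE) and the 3 protochlorophyllide oxidoreductase genes PORA, PORB and PORC. All 40 had a matched probe on the array, and 39 gave a value, among 20462 genes measured. They were read in whole Col-0 seedlings of 3 genotypes, collected 14 days after germination without treatment, from agar plates with 1.5% sucrose at 22 °C under 8 h of light and 16 h of darkness. AtC3H17 OX plants overexpress AtC3H17 (its protein has CCCH zinc fingers) and were measured on 2 arrays; the promoter and the number of independent lines are not given in the sources used here. The atc3h17-1 plants carry an allele of the same gene and were measured on 1 array, as were the WT plants. The submitters set the AtC3H17 OX samples against WT to find genes that differ with the level of AtC3H17.

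LHCA proteins form the antenna of photosystem I. LHCB1, LHCB2 and LHCB3 form the trimeric main antenna of photosystem II, and LHCB4, LHCB5 and LHCB6 link it to the core. PSBO, PSBP and PSBQ shield the oxygen-evolving centre of photosystem II, plastocyanin carries electrons to photosystem I, Rubisco fixes carbon dioxide, and the POR enzymes carry out the light-dependent step of chlorophyll synthesis. In a seedling these transcripts belong to green tissue and are among its most abundant nuclear messages.

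On these arrays the photosynthesis genes, as means over their probes, stayed close to their WT level in both lines. The median member was 0.16 above WT in AtC3H17 OX and 0.10 above WT in atc3h17-1 on the log2 scale, and none was 2-fold different in either line. PORA was the single member that rose at least 1.5-fold on both AtC3H17 OX arrays, a call that was lost in some alternatives. Of 34 members with several probes, 10 had every probe higher in AtC3H17 OX than in both other genotypes, beside 22.9% of all such genes. The antenna genes LHCB1.4, LHCB2.1 and LHCB2.3, picked from the 10 after their values were seen, were higher by 0.26 to 0.47 as gene means. Outside the 40 genes, all 7 genes on a list of chlorophyll breakdown genes were above WT in both lines, HCAR by only 0.06 in atc3h17-1. Of all genes, 44.2% lay above WT on both AtC3H17 OX arrays and 47.0% in atc3h17-1. The list was drawn up with earlier results of these data known.

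Levels are log2 processed intensities minus the log2 of the array's 75th percentile, so a level is relative to that percentile and levels of different probes are not compared. The 4 arrays lay on 1 slide with 1 scan time. On each array 72.0% to 74.5% of spots exceeded background clearly, and none was marked as saturated. The highest processed signal was 784582, on the WT array, where the file headers give a saturation value of 779137. The AtC3H17 OX arrays differed from each other by a median of 0.0322 over 30340 probes, and the difference seen by a gene's first probe did not recur in its next one (r = 0.0056 across 5698 genes, which are not independent replicates; 0.54 to 0.66 between genotypes). The pair is treated as 1 sample, since over all genes it differed by no more than spot noise, although 238 genes were at least 2-fold apart. The spread between plants was not measured. Each genotype is thus 1 sample and no p-value is given: a gene was called by size, at least 2-fold or at least 1.5-fold different on both AtC3H17 OX arrays. Across 17 probes spotted repeatedly, the SD was 0.0683 to 0.0950 on the arrays of both lines and 0.223 on the WT array, so differences from WT are less certain than those between the lines. The trend over spot position, relative to the mean of the 4 arrays, lay mostly between -0.15 and 0.23 on the WT array. It lay between -0.05 and 0.10 and between -0.06 and 0.08 on the AtC3H17 OX arrays, and between -0.13 and -0.01 in atc3h17-1. Of the 3 probes of AT2G02160, taken as AtC3H17 from general knowledge, A_84_P803253 and A_84_P847169 were 2.19 and 2.49 higher in AtC3H17 OX than in WT and A_84_P221496 was at -0.03. In atc3h17-1 the signals of A_84_P221496 and A_84_P803253 were not well above background: A_84_P221496 was thus at least 502-fold lower than in WT and A_84_P803253 at least 42.7-fold lower. Probe A_84_P847169 lay at 0.50 above WT in atc3h17-1.

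The 39 members were read by 138 probes, 1 to 13 a gene, all well above background on every array. Of the 39, 23 had a probe brighter than 50% of the scanner's saturation value of 779137. Whether differences are narrowed at such bright signals was not tested. LHCA6, an LHCA relative found with the NDH complex, had 1 probe, whose spot was marked as an outlier on AtC3H17 OX array 2. Its levels on the other arrays were 3.59 on AtC3H17 OX array 1, 3.40 in atc3h17-1 and 3.48 in WT, and it enters no count.

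The comparison of AtC3H17 OX with WT asked which genes go with a higher level of AtC3H17. Of the 39 members, 1 was called at 1.5-fold and 0 at 2-fold, where 19.8% and 7.14% of all genes were called in either direction. At 1.5-fold 1 was higher and 0 lower, beside 10.1% and 9.69% of all genes, and at 2-fold 0 were higher and 0 lower, beside 4.37% and 2.78%. In 28 of the 39, the difference was within 1.25-fold, against 55.4% of all genes. Shares of all genes, here and below, are not like for like. Of the 20462 genes measured, 14404 rest on 1 probe, while 34 of the 39 members are means over several. What this does to the shares was not tested. By sign alone, 31 lay above WT on both arrays, 5 below on both and 3 on different sides, while 44.2% of all genes lay above WT on both arrays and 50.5% below. The median of the members was 0.16 (range -0.26 to 0.64), against -0.03 over all genes, and it stayed above 0 in every alternative processing run, from 0.07 to 0.23. All of these differences rest on the same WT array.

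For atc3h17-1 against WT, which shares the WT array with the first comparison, 0 of 39 members were called at 1.5-fold, where 17.5% of all genes were (8.89% higher and 8.65% lower), and 0 at 2-fold, where 8.59% were (4.34% higher and 4.24% lower). Of the 39, 33 were within 1.25-fold (63.4% of all genes), 31 lay above WT (47.0% of all genes) and 8 below (53.0%). The median was 0.10 (range -0.06 to 0.55), against -0.02 over all genes. AtC3H17 OX against atc3h17-1 does not use the WT array. There the members were closest: 37 of 39 within 1.25-fold (73.2% of all genes), 0 called at 1.5-fold (9.75% of all genes, 6.30% higher and 3.45% lower) or at 2-fold (4.46%, 2.80% higher and 1.66% lower), and a median of 0.04 (range -0.34 to 0.43). AtC3H17 OX was the higher line for 24 members on both arrays (45.1% of all genes) and the lower for 8 (47.3%). Over the 138 probes the SD of the difference was 0.15 for AtC3H17 OX array 1 minus atc3h17-1, 0.29 for AtC3H17 OX array 1 minus WT and 0.27 for atc3h17-1 minus WT.

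**Figure D1:**
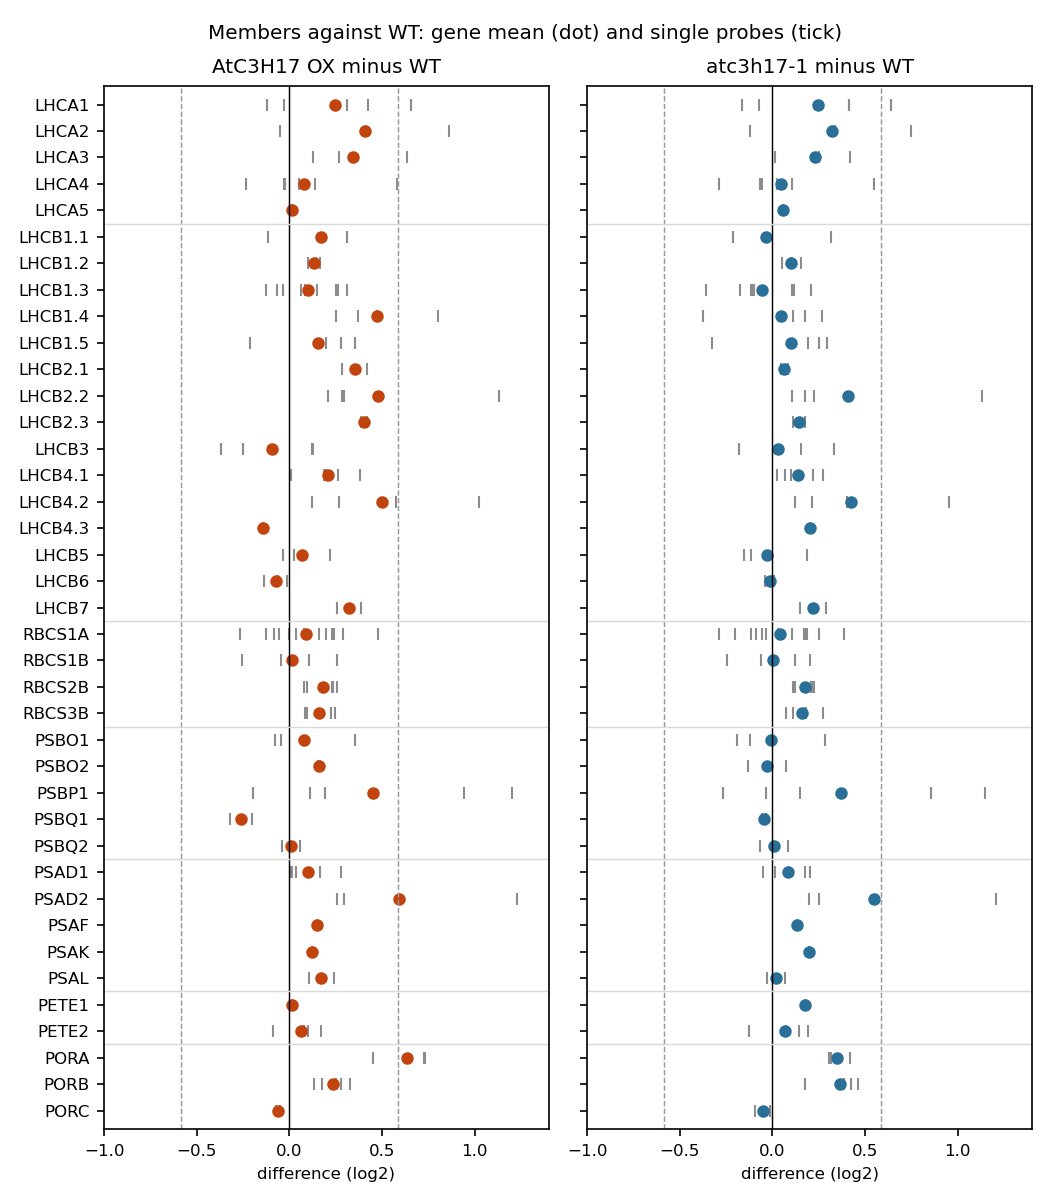
Difference from WT of the 39 measured members on the log2 scale, AtC3H17 OX on the left and atc3h17-1 on the right. Dots are gene means over probes, grey ticks are single probes and dashed lines mark 1.5-fold; most dots lie between 0 and 0.5, PORA and PSAD2 lie farthest to the right in AtC3H17 OX, and some genes such as PSBP1 have probes spread from below 0 to above 1.

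Among the LHCA genes of the photosystem I antenna, the 5 measured had a median of 0.25 in AtC3H17 OX and 0.23 in atc3h17-1 relative to WT. LHCA2 (AT3G61470) had levels of 5.71 and 5.69 on the AtC3H17 OX arrays, 5.61 in atc3h17-1 and 5.29 in WT, so that WT alone was low. Its 3 probes differed from WT by -0.05 to 0.86 in AtC3H17 OX and by -0.12 to 0.75 in atc3h17-1. LHCA1 (0.25 in both lines) and LHCA3 (0.34 in AtC3H17 OX and 0.23 in atc3h17-1) were also above WT, whereas LHCA4, the partner of LHCA1 (0.08 and 0.04), and LHCA5, a minor LHCA protein (0.02 and 0.06), were near it. Between the lines the LHCA genes ranged from -0.04 to 0.11.

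The LHCB1 genes encode the most abundant antenna protein of photosystem II, and their sequences are so alike that probes may read several of them. LHCB1.4 (AT2G34430) had levels of 3.27 and 3.22 on the AtC3H17 OX arrays, against 2.82 in atc3h17-1 and 2.77 in WT. As gene means, the AtC3H17 OX arrays stood apart from both other genotypes, by 0.47 over WT and 0.43 over atc3h17-1. The mean of atc3h17-1 was at 0.04 from WT, with probes from -0.38 to 0.27. All 4 probes were higher in AtC3H17 OX, by 0.25 to 0.80 over WT and by 0.20 to 0.69 over atc3h17-1, where the brightest gave 0.20. The brighter probes A_84_P160283 and A_84_P857496 put atc3h17-1 at 0.27 and 0.17 above WT. The gaps of 0.69 and 0.63 over atc3h17-1 came from probes with levels between -1.34 and -0.46. LHCB1.1 was 0.20 and LHCB1.3 was 0.16 higher in AtC3H17 OX than in atc3h17-1, and the corresponding values from WT were 0.17 and 0.10. LHCB1.2 (0.13) and LHCB1.5 (0.16) were a little above WT in AtC3H17 OX and at 0.10 in atc3h17-1.

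LHCB2 proteins are among the antenna subunits phosphorylated in state transitions. The LHCB2 genes too are near copies of each other, and their probes may share signal. LHCB2.1 (AT2G05100) had levels of 1.79 and 1.84 on the AtC3H17 OX arrays, 1.52 in atc3h17-1 and 1.46 in WT. LHCB2.3 (AT3G27690) had 5.06 and 5.07 on the AtC3H17 OX arrays, 4.81 in atc3h17-1 and 4.67 in WT. Both genes were highest on the AtC3H17 OX arrays, with gaps between those arrays of 0.05 and 0.01. The differences from WT were 0.35 for LHCB2.1 and 0.40 for LHCB2.3 in AtC3H17 OX, against 0.06 and 0.14 in atc3h17-1, and AtC3H17 OX exceeded atc3h17-1 by 0.29 and 0.26. The 2 probes of each gene gave close values, 0.24 and 0.34 for LHCB2.1 and 0.24 and 0.28 for LHCB2.3 over atc3h17-1.

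As a gene mean, LHCB2.2 (AT2G05070) looked different from its relatives. Its levels were 4.84 and 4.88 on the AtC3H17 OX arrays, 4.79 in atc3h17-1 and 4.38 in WT, with WT alone low. Both lines were above WT (0.48 in AtC3H17 OX and 0.41 in atc3h17-1) and 0.07 apart. Of its 4 probes, A_84_P808696 was 1.13 above WT in both lines, and the other three lay between 0.21 and 0.30 in AtC3H17 OX and between 0.10 and 0.23 in atc3h17-1. For AtC3H17 OX over atc3h17-1, A_84_P288490 gave 0.19 and A_84_P808711 gave 0.11, both with the order of LHCB2.1 and LHCB2.3. Probes A_84_P803298 and A_84_P808696 gave -0.016 and -0.002.

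The linker antenna genes did not move as a group. LHCB4.2 (AT3G08940) had levels of 5.85 and 5.78 on the AtC3H17 OX arrays, 5.74 in atc3h17-1 and 5.32 in WT, which made it the LHCB gene farthest from WT in both lines (0.50 and 0.42). All 4 of its probes were above WT, from 0.12 to 1.03 in AtC3H17 OX and from 0.12 to 0.95 in atc3h17-1. LHCB4.3 (AT2G40100), a divergent LHCB4 gene, went the other way between the lines, with 1.10 and 1.06 on the AtC3H17 OX arrays, 1.42 in atc3h17-1 and 1.22 in WT. It was 0.34 lower in AtC3H17 OX than in atc3h17-1, the lowest value of any member in that comparison, and lay at -0.14 from WT in AtC3H17 OX and 0.20 in atc3h17-1, by 1 probe. LHCB4.1 was at 0.21 and 0.14 from WT, LHCB5 at 0.07 and -0.03, LHCB6 at -0.07 and -0.01, LHCB3, the third subunit of the trimers, at -0.09 and 0.03, and LHCB7 at 0.32 and 0.22, in AtC3H17 OX and atc3h17-1 in turn. The 15 LHCB genes together had medians of 0.17 in AtC3H17 OX and 0.10 in atc3h17-1 from WT, and 0.08 for AtC3H17 OX over atc3h17-1.

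**Figure D2:**
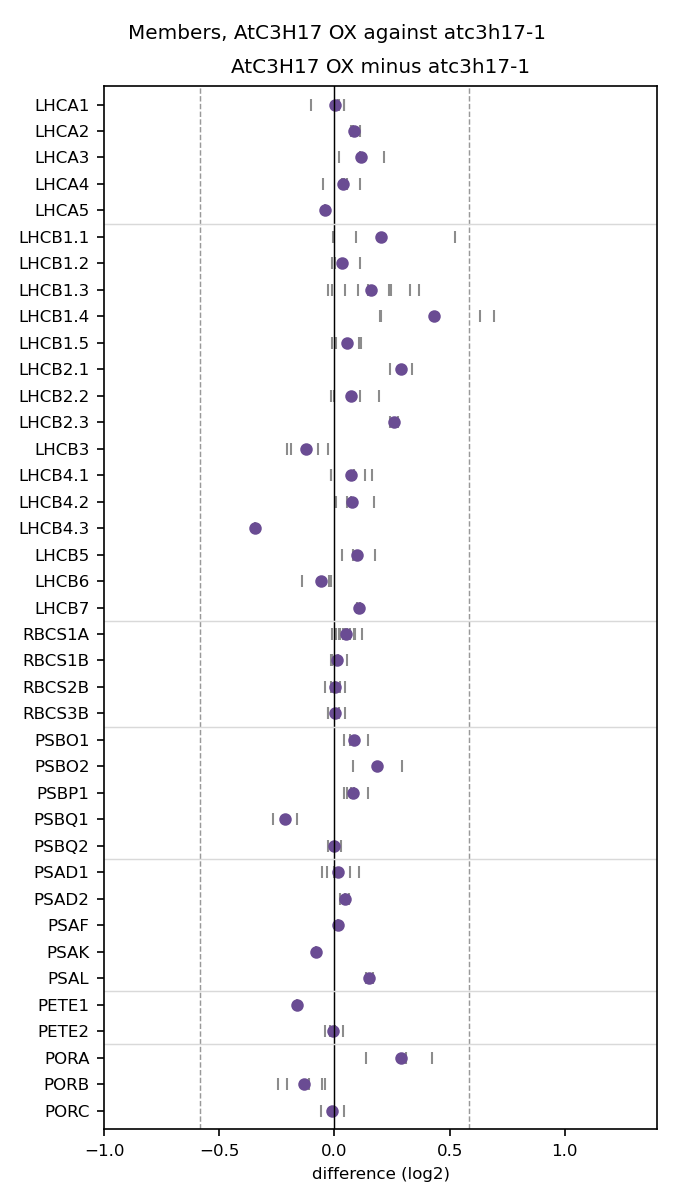
AtC3H17 OX minus atc3h17-1 for the same 39 members on the log2 scale, with gene means as dots, probes as ticks and 1.5-fold as dashed lines. The values gather near 0; LHCB1.4 at 0.43 lies farthest to the right and LHCB4.3 at -0.34 farthest to the left, and the RBCS genes lie within 0.05 of 0.

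The Rubisco small subunit genes were the most even group between the lines, although their coding regions are so alike that probes may not tell them apart. RBCS2B (AT5G38420) had levels of 7.09 on both AtC3H17 OX arrays, 7.09 in atc3h17-1 and 6.91 in WT, a difference of 0.18 from WT in both lines. RBCS3B was at 0.16 in both lines, RBCS1A (AT1G67090), the main small subunit gene of leaves, at 0.09 and 0.04, and RBCS1B at 0.01 and 0.00. RBCS1A had levels of 6.97 and 6.95 on the AtC3H17 OX arrays, 6.91 in atc3h17-1 and 6.87 in WT, and its 13 probes ranged from -0.27 to 0.48 against WT in AtC3H17 OX. Over atc3h17-1, AtC3H17 OX was at most 0.05 higher, in RBCS1A. The group median from WT was 0.13 in AtC3H17 OX and 0.10 in atc3h17-1, and it turned to -0.02 in both lines with quantile normalization.

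Among the extrinsic subunits of photosystem II, PSBP1 (AT1G06680) was farthest from WT. Its levels were 6.30 and 6.26 on the AtC3H17 OX arrays, 6.20 in atc3h17-1 and 5.83 in WT, or 0.45 and 0.37 above WT. The 5 probes ranged from -0.20 to 1.20 against WT in AtC3H17 OX and from -0.27 to 1.15 in atc3h17-1, yet all 5 lay between 0.04 and 0.14 for AtC3H17 OX over atc3h17-1. With the brightest probe alone PSBP1 was at -0.20 in AtC3H17 OX and -0.27 in atc3h17-1. PSBQ1 (AT4G21280) was the member farthest below WT in AtC3H17 OX. It had 5.21 and 5.19 on the AtC3H17 OX arrays, against 5.41 in atc3h17-1 and 5.46 in WT. The AtC3H17 OX arrays were lowest, by 0.26 below WT and 0.22 below atc3h17-1, on both probes. PSBO1 and PSBO2, for the manganese-stabilizing protein, were at 0.08 and 0.16 in AtC3H17 OX and at -0.01 and -0.03 in atc3h17-1, and PSBQ2 was at 0.01 in both lines.

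Of the photosystem I subunits, PSAD2 (AT1G03130), which helps dock ferredoxin on the stromal side, had levels of 5.44 and 5.38 on the AtC3H17 OX arrays, 5.36 in atc3h17-1 and 4.81 in WT. The WT array was again the low one, with differences of 0.59 in AtC3H17 OX (0.62 and 0.56 by array, so that array 2 fell short of the 1.5-fold limit of 0.58) and 0.55 in atc3h17-1. Probe A_84_P805878 was 1.23 and 1.20 above WT in those lines, and the other two lay between 0.19 and 0.29. With the median over probes in place of the mean, chosen after the values were seen, PSAD2 was at 0.31 and 0.25. Its homologue PSAD1 was at 0.10 and 0.08, and PSAF, a plastocyanin-docking subunit, at 0.15 and 0.13. PSAK was at 0.12 and 0.20, and PSAL (AT4G12800), needed for docking of the mobile antenna, at 0.17 and 0.02. On its 1 probe, PSAK ranged over the alternatives from -0.14 to 0.52 in AtC3H17 OX and from -0.05 to 0.63 in atc3h17-1. PSAL had levels of 4.92 and 4.91 on the AtC3H17 OX arrays, 4.76 in atc3h17-1 and 4.74 in WT, and at 0.15 it had the largest difference between the lines among the 5 photosystem I members. The plastocyanin gene PETE1 (AT1G76100), with 4.93 and 4.82 on the AtC3H17 OX arrays, 5.04 in atc3h17-1 and 4.86 in WT, was at 0.02 and 0.18 from WT. With normexp background correction these became 0.54 and 0.70. The main plastocyanin gene PETE2 (AT1G20340) had 6.58 and 6.60 on the AtC3H17 OX arrays, 6.59 in atc3h17-1 and 6.52 in WT, at 0.06 and 0.07 from WT.

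The POR genes differed from one another. PORA (AT5G54190), known from etiolated seedlings, had levels of -2.29 and -2.31 on the AtC3H17 OX arrays, -2.59 in atc3h17-1 and -2.94 in WT. The order was AtC3H17 OX, atc3h17-1, WT on each of its 3 probes. Probe A_84_P834298 was the dimmest of any member, at -5.52 on both AtC3H17 OX arrays, -5.95 in atc3h17-1 and -6.25 in WT. PORA rose 1.55-fold in AtC3H17 OX (0.64, with 0.45 to 0.73 over the probes), where 10.1% of all genes were at least 1.5-fold higher, and was at 0.35 in atc3h17-1 and at 0.29 between the lines. The call was lost with normexp (0.37), with the brightest probe (0.45) and with quantile normalization (0.57). PORB (AT4G27440), the gene used in green seedlings, was highest in atc3h17-1 instead, with 1.88 on both AtC3H17 OX arrays, 2.01 in atc3h17-1 and 1.65 in WT. All 5 PORB probes were above WT in both lines, by 0.13 to 0.33 in AtC3H17 OX (mean 0.23) and by 0.17 to 0.46 in atc3h17-1 (mean 0.37). PORC (AT1G03630), the light-induced form of mature green tissue, was level, with 2.50 and 2.52 on the AtC3H17 OX arrays, 2.52 in atc3h17-1 and 2.57 in WT.

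**Figure D3:**
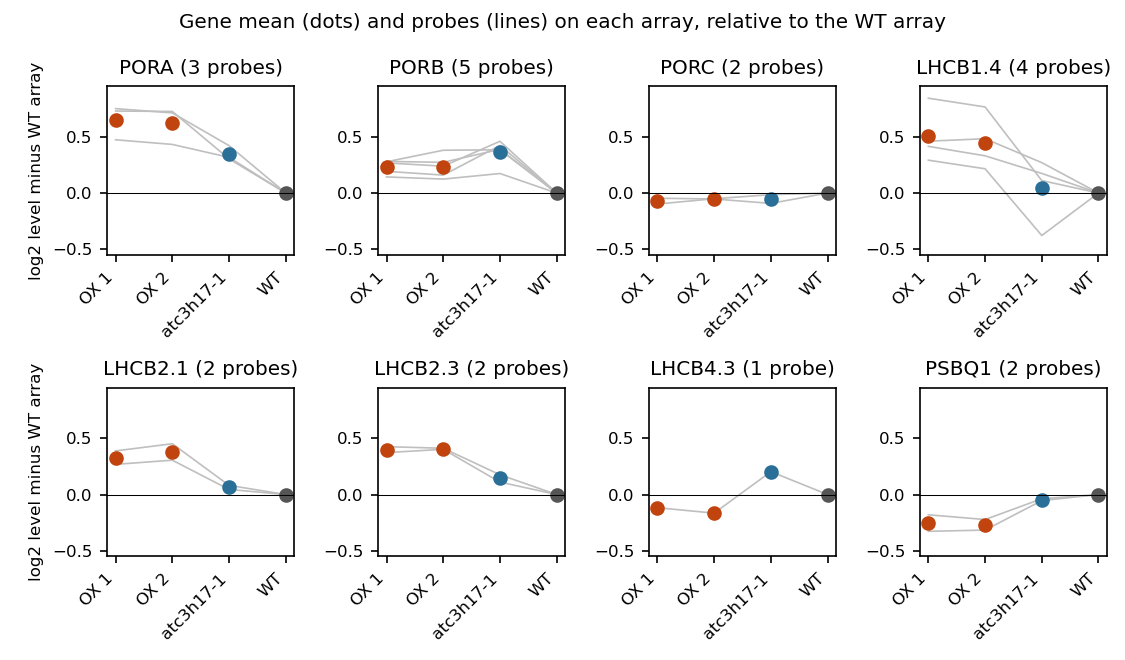
Levels of 8 members on each array relative to the WT array, on the log2 scale, with the AtC3H17 OX arrays (OX 1 and OX 2), atc3h17-1 and WT from left to right. Dots are gene means and grey lines single probes; PORA, LHCB1.4, LHCB2.1 and LHCB2.3 are highest on the AtC3H17 OX arrays, PORB is highest in atc3h17-1, PORC is flat, and PSBQ1 and LHCB4.3 are lowest on the AtC3H17 OX arrays.

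Agreement between probes was counted over the 34 members with at least 2 of them. In AtC3H17 OX, 17 had all probes above WT and 3 (LHCB6, PSBQ1 and PORC) had all below, where 33.8% and 33.0% of the 6058 genes with several probes did so. In atc3h17-1 the counts were 13 above and 2 below (27.2% and 34.0% of genes). For AtC3H17 OX over atc3h17-1 they were 14 above and 4 below (39.0% and 33.4%), the 4 being LHCB3, LHCB6, PSBQ1 and PORB. The 10 members with every probe highest in AtC3H17 OX were LHCA3, LHCB1.4, LHCB2.1, LHCB2.3, LHCB4.2, LHCB7, PSBO2, PSAD2, PSAL and PORA.

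The share of root in a whole seedling bears on genes of green tissue, and in bulk samples fewer cells of a type and less RNA per cell cannot be told apart. Of 23 root markers, 21 were measured. The summed signal of the 21, in multiples of the 75th percentile, was 16.3 on both AtC3H17 OX arrays, 13.4 in atc3h17-1 and 20.4 in WT. Without BGLU23, which made up most of it, the sums were 4.01 and 3.92 in AtC3H17 OX, 1.77 in atc3h17-1 and 5.84 in WT. At 2-fold, 0 were higher and 3 lower in AtC3H17 OX (4.37% and 2.78% of all genes), and 1 was higher and 16 lower in atc3h17-1 (4.34% and 4.24%), with medians of -0.51 and -1.67. With levels not well above background set to the lowest signal that was, 15 were lower in atc3h17-1 and both medians were the same. The largest differences were those of RSL4 (-1.95), PRP1 (-1.93) and PRP3 (-1.19) in AtC3H17 OX. In atc3h17-1, PRP3 was at -2.72 and CASP1 at -2.47, and CASP5 had only an upper bound. IRT1 and PLT2 were not well above background on any array, nor were SMB in either line, PLT1 in AtC3H17 OX and WT, and CASP4, CASP5 and BRN1 in atc3h17-1. The summed signal of the 39 members was 2243 and 2224 on the AtC3H17 OX arrays, 2190 in atc3h17-1 and 2019 in WT. Other genes of green tissue, on the lists described below, had a different order. The Calvin cycle sums were 247.7 and 249.5 on the AtC3H17 OX arrays, 236.8 in atc3h17-1 and 261.1 in WT. For photorespiration the sums were 147.1 and 147.9 on the AtC3H17 OX arrays, 125.3 in atc3h17-1 and 136.8 in WT. The part of root tissue in the members' values was not tested.

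Other genes of photosynthesis, on lists drawn up with earlier results of these data known, gave the members their setting. Of 20 further photosystem and electron transport genes, 1 was at least 1.5-fold higher in AtC3H17 OX than in WT and 0 lower (10.1% and 9.69% of all genes), with a median of 0.14. It was PSBP2, a PSBP1 relative of low level, at -1.26 and -1.30 on the AtC3H17 OX arrays, -1.75 in atc3h17-1 and -2.25 in WT. The difference of PSBP2 from WT was 0.97 in AtC3H17 OX and 0.50 in atc3h17-1, on 1 probe. PSAG and PSAN, small photosystem I subunits, were at 0.46 and 0.42 in AtC3H17 OX and at 0.23 and 0.45 in atc3h17-1. PSBX was at -0.33 in AtC3H17 OX and -0.38 in atc3h17-1, on 1 probe. Its sign changed over the alternatives, from -0.51 to 0.36 in AtC3H17 OX and from -0.49 to 0.33 in atc3h17-1. The median in atc3h17-1 was 0.07 with 0 calls at 1.5-fold, where 17.5% of all genes were called. Between the lines, FNR1, a ferredoxin-NADP reductase gene, was at 0.30 and PSAG at 0.23.

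**Figure D4:**
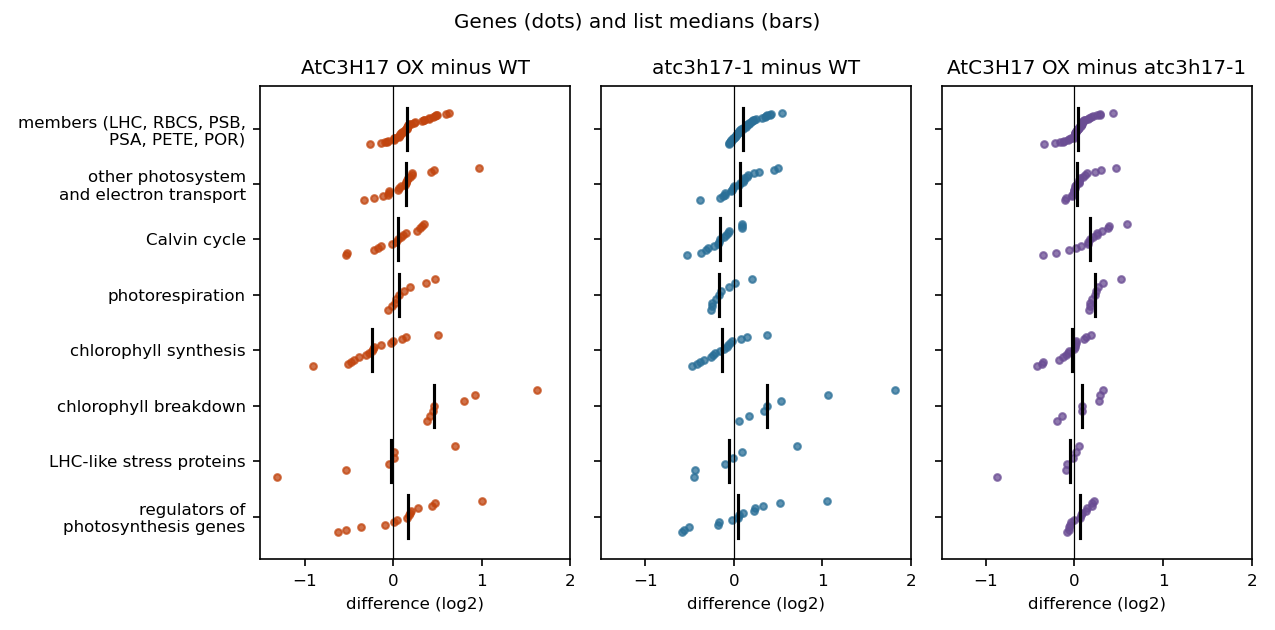
Differences on the log2 scale for the members and 7 other gene lists, with AtC3H17 OX minus WT, atc3h17-1 minus WT and AtC3H17 OX minus atc3h17-1 from left to right. Each dot is a gene and each bar a list median; the bars of chlorophyll breakdown lie at 0.46 and 0.38 from WT, those of chlorophyll synthesis at -0.23 and -0.13, and Calvin cycle and photorespiration genes lie at 0.17 and 0.23 between the lines.

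Genes of the Calvin cycle and of photorespiration had medians of 0.17 and 0.23 for AtC3H17 OX over atc3h17-1, beside 0.04 for the members. The 15 Calvin cycle genes had medians of 0.05 in AtC3H17 OX and -0.15 in atc3h17-1 from WT, and 0.17 between the lines, where 1 was called higher and 0 lower at 1.5-fold. It was RCA, the Rubisco activase gene, with 3.63 on both AtC3H17 OX arrays, 3.03 in atc3h17-1 and 3.32 in WT. RCA thus rose by 0.60 in AtC3H17 OX over atc3h17-1, with WT in between. Of all genes, 6.30% were called higher there and 3.45% lower. The probes of RCA ranged from 0.04 to 0.85, and the call was lost with the brightest probe (0.04), with quantile normalization (0.58) and when scaled to the array median or the reference genes (0.57 each). GAPB, for a subunit of plastid glyceraldehyde-3-phosphate dehydrogenase, was at 0.39 and PRK, for phosphoribulokinase, at 0.38 between the lines. Relative to WT, TIM (-0.53), GAPA2 (-0.52) and CP12-2 (0.35) were farthest in AtC3H17 OX, and GAPB (-0.52), RPE (-0.37) and GAPA2 (-0.31) in atc3h17-1. With the brightest probes the Calvin cycle median from WT in atc3h17-1 turned to 0.06, and the one between the lines was 0.04.

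All 9 photorespiration genes were higher in AtC3H17 OX than in atc3h17-1 (45.1% of all genes), by 0.16 to 0.53 with a median of 0.23. At 1.5-fold 0 were called (9.75% of all genes). AGT, a serine-glyoxylate aminotransferase gene, had levels of 4.00 and 4.02 on the AtC3H17 OX arrays, 3.48 in atc3h17-1 and 3.54 in WT. It was at 0.47 from WT in AtC3H17 OX and at -0.06 in atc3h17-1. PGLP1 (0.33) and GLYK (0.26) followed between the lines. From WT, GLDP1 was at 0.37 and GGT1 at 0.19 in AtC3H17 OX, and GOX2, SHM1 and GLYK were at -0.26, -0.25 and -0.24 in atc3h17-1. The list medians from WT were 0.07 in AtC3H17 OX and -0.17 in atc3h17-1.

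By median, the chlorophyll synthesis and breakdown lists lay on opposite sides of WT. The synthesis list leaves out the POR genes: PORA and PORB were above WT in both lines and PORC was slightly below. Of 16 synthesis genes, 13 were below WT in each line (50.5% of all genes in AtC3H17 OX and 53.0% in atc3h17-1). The medians were -0.23 in AtC3H17 OX and -0.13 in atc3h17-1. At 1.5-fold, 1 was called lower in AtC3H17 OX (9.69% of all genes) and 0 in atc3h17-1 (8.65%). It was CHLI2, a magnesium chelatase subunit read by 1 probe, with 1.06 on both AtC3H17 OX arrays, 1.48 in atc3h17-1 and 1.96 in WT. CHLI2 fell by 0.90 in AtC3H17 OX and was at -0.48 in atc3h17-1, and with normexp these became -0.15, which is no call, and 0.26. The main form CHLI1 was at -0.48 and -0.11. HEMA1, the first committed enzyme of the pathway, was at 0.51 and 0.38 on 1 probe. Over the alternatives HEMA1 ranged from 0.43 to 1.38 in AtC3H17 OX and from 0.32 to 1.23 in atc3h17-1. FLU, which restrains the HEMA1 enzyme, was at -0.50 and -0.41, and CHLG, chlorophyll synthase, at -0.44 and -0.39. GUN4, also on 1 probe, was at -0.23 and -0.33 and changed sign over the alternatives. Between the lines CHLI2, CHLI1 and DVR were at -0.42, -0.36 and -0.35.

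All 7 chlorophyll breakdown genes were above WT in both lines (44.2% of all genes in AtC3H17 OX and 47.0% in atc3h17-1). The medians were 0.46 in AtC3H17 OX and 0.38 in atc3h17-1. HCAR, on 1 probe, was at 0.06 in atc3h17-1 and ranged from -0.23 to 0.31 over the alternatives. The probes of NOL ranged from -0.10 to 0.44 in atc3h17-1. At 1.5-fold, 3 rose in AtC3H17 OX and 2 in atc3h17-1 (10.1% and 8.89% of all genes), and 0 fell. SGR2, a STAY-GREEN family gene, had levels of -1.51 and -1.54 on the AtC3H17 OX arrays, -1.32 in atc3h17-1 and -3.14 in WT, with WT far below both lines. SGR2 rose by 1.62 and 1.82. SGR1, which starts chlorophyll a breakdown, had 0.56 and 0.61 on the AtC3H17 OX arrays, 0.73 in atc3h17-1 and -0.33 in WT. SGR1 rose by 0.92 and 1.06, on 1 probe. PPH, pheophytinase, had 3.06 on both AtC3H17 OX arrays, 2.79 in atc3h17-1 and 2.26 in WT. On its 1 probe, PPH rose by 0.80 in AtC3H17 OX, with 0.53 in atc3h17-1. Between the lines this list differed by a median of 0.08, with HCAR at 0.32, NOL at 0.29 and PPH at 0.27.

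Among 6 LHC-like stress proteins, ELIP1 and ELIP2, early light-induced proteins, went apart. ELIP1 had 0.55 and 0.68 on the AtC3H17 OX arrays, 0.63 in atc3h17-1 and -0.08 in WT, and rose by 0.70 and 0.71 on 1 probe. Both calls were lost with normexp (0.39 and 0.40). ELIP2, also on 1 probe, had -2.69 and -2.67 on the AtC3H17 OX arrays, -1.81 in atc3h17-1 and -1.37 in WT. It fell by 1.31 from WT and by 0.87 from atc3h17-1 in AtC3H17 OX, and was at -0.44 in atc3h17-1. LIL3:1 was at -0.53 and -0.44, and the other three lay between -0.10 and 0.09.

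Of 14 regulators, 1 was called higher and 1 lower than WT at 1.5-fold in each line, beside 10.1% and 9.69% of all genes in AtC3H17 OX and 8.89% and 8.65% in atc3h17-1. GUN1, of plastid-to-nucleus signalling, had 3.09 and 3.02 on the AtC3H17 OX arrays, 3.11 in atc3h17-1 and 2.06 in WT, and rose by 1.00 and 1.05 on 1 probe (1.82 and 1.83 with normexp). HYH, the homologue of the light-response factor HY5, had -0.77 and -0.73 on the AtC3H17 OX arrays, -0.69 in atc3h17-1 and -0.13 in WT. HYH fell by 0.62 in AtC3H17 OX and was at -0.57 in atc3h17-1. There CGA1, a GATA factor, was the gene called, at -0.59 on 1 probe (-0.53 in AtC3H17 OX). The HYH call was lost with normexp (-0.36), with the brightest probe (-0.57) and when scaled to the reference genes (-0.54), and the CGA1 call when scaled to the reference genes (-0.49). GLK1, an activator of many of the members, was at 0.47 and 0.34, and its homologue GLK2 at 0.05 in both lines. Between the lines the 14 regulators ranged from -0.09 to 0.22, with PIF5 at 0.22 and SIG5 and GNC at 0.20.

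The 11 measured reference genes, by which the scaling can be judged, had medians of -0.14 in AtC3H17 OX and -0.03 in atc3h17-1, with EF1A at -0.45, UBQ10 at 0.41 and GAPC1 at -0.31 in AtC3H17 OX and ACT8 at -0.52, GAPC1 at -0.45 and EF1A at -0.43 in atc3h17-1. The 7 plastid-encoded subunit genes on a further list had no matched probe and are not analysed here.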

How the data were processed

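Each array is 1 sample's scanner file. Per the file headers, the authors' deposited processed signal is a linear intensity from Agilent Feature Extraction 11.0.1.1, background-subtracted and detrended within the array, and annotated to TAIR10; the deposited median spot and background intensity values are raw. The series value table held the same linear intensity (all but 43 to 49 of 43603 probes within 0.01 on the log2 scale). Total RNA (1 µg) was labelled with Cy3, per the labels' protocols.

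Here log2 intensity minus the array's 75th percentile was used. Control and outlier spots were left out (70 probes), repeated spots were averaged, and 32972 probes passed the filter, which asked for signal clearly over background on all arrays of some genotype. Through transcript accessions of the TAIR10.1 RefSeq table, 34348 of 43603 probes matched 1 locus. A gene's value is the mean of its probes. Calls were by size. limma 3.58.1 in R 4.3.3, adjusted p under 0.05 and 2-fold, was an alternative. Both were also run on simulated data, with larger changes than the members showed and less noise than the WT array had. That run therefore does not judge the members' differences. Other alternatives were median, quantile and reference-gene scaling, normexp (offset 50), other filters, the brightest probe, the series table, loess over position (span 0.05) and each AtC3H17 OX array alone. Python 3.11.15, numpy 2.4.6, pandas 2.3.3 and matplotlib 3.10.9 were used.

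The members and lists were chosen with earlier results of these data known. Per-array values are given for the PORs, for the largest difference per complex (3 for LHCA and LHCB) in each comparison and for members at least 1.5-fold different; 3 genes are named per other list and comparison. LHCB2.3 and a few regulators and list genes were named after their values were seen. The number of arrays limits the precision.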

Additional observations from a re-analysis of the deposited data

How the results depend on the processing

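The members' medians kept their sign in every alternative, from 0.07 to 0.23 for AtC3H17 OX against WT, 0.04 to 0.21 for atc3h17-1 against WT and 0.01 to 0.06 for AtC3H17 OX against atc3h17-1. The count of members at least 1.5-fold higher in AtC3H17 OX than in WT, 1 as reported, was 0 with quantile normalization, 2 when scaled to the reference genes, 4 with normexp, 3 with the brightest probe (LHCA2, LHCB4.2 and PSAD2, without PORA), and 1 to 2 with either AtC3H17 OX array left out (PSAD2 joined on array 1 alone). At 2-fold it was 2 with the brightest probe (LHCB4.2 and PSAD2) in place of 0. In atc3h17-1 the count at 1.5-fold, 0 as reported, was 1 when scaled to the reference genes, 4 with normexp and 3 with the brightest probe, and at 2-fold 1 with the brightest probe. The cause was not tested. No member was called lower in any alternative, and none was called between the lines. limma called 0 of 39 members in both comparisons with AtC3H17 OX; its error came from 1 residual degree of freedom, and 13586 of 20462 genes passed its adjusted p alone against WT, so it does not judge small differences. Group medians near 0 changed sign with the scaling, as for the PSB genes in AtC3H17 OX (0.08, and -0.01 with quantile normalization). No paired analysis was possible because WT and atc3h17-1 had 1 array each.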
